A study of Mus musculus with 6 samples.

Results

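The genes described here are 32 genes of sterol and fatty acid metabolism: enzymes of cholesterol synthesis, the proteins that sense sterols, sterol transporters and uptake regulators, and enzymes of fatty acid synthesis. They were chosen by name, as a set that tamoxifen compounds can induce by blocking sterol enzymes, and each table entry was assigned to a gene through its RefSeq identifier. All 32 were found among the 20633 entries of the table, on 33 entries, because *Insig2* has a pair of them, and the entry with the highest base mean was kept for each gene.

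The 6 libraries hold nuclear RNA of mouse embryonic stem cells with the genotype *Rybp* fl/fl; *Yaf2* -/-. All of them share the loss of *Yaf2*, the floxed *Rybp* alleles and a tamoxifen-inducible Cre recombinase. Untreated cells (UNT) gave 3 libraries, and cells kept for 96 hr in 4-hydroxytamoxifen (OHT) at 800 nM, which activates the Cre and deletes *Rybp*, gave the other 3. The *Yaf2* deletion was made by genome editing, and individual colonies were picked and expanded, so the cells descend from a clone. No OHT-treated cells without floxed *Rybp* are among these samples, so an effect of OHT or of Cre and an effect of RYBP loss cannot be told apart in this design.

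For each entry the authors' table gives a base mean, the mean over all 6 libraries of the read-pair count normalized for library size. UNT and OHT libraries enter this mean together. The remaining columns hold the authors' own comparison of OHT with UNT, and these were not used here. The values below are therefore levels of the genes in this cell line over both conditions. They carry no spread between replicates, no test, and no difference between UNT and OHT. The sequencing depth is unknown, and whether neighbouring genes in an order differ beyond the replicate error cannot be told from a single mean.

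Cholesterol is built from acetyl-CoA through mevalonate, farnesyl diphosphate, squalene and lanosterol. When membranes of the endoplasmic reticulum are poor in sterol, SCAP carries the SREBP transcription factors to the Golgi apparatus, where proteases release their active part, and the enzymes of the pathway are transcribed. INSIG proteins hold SCAP back when sterol is plentiful. Oxysterols activate LXR receptors, which turn on sterol export and fatty acid synthesis. Tamoxifen and 4-hydroxytamoxifen bind the microsomal antiestrogen binding site, to which EBP and DHCR7, enzymes of late cholesterol synthesis, contribute.

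The labelled cell type was examined through marker genes. Of 8 listed embryonic stem cell markers, 7 were matched, and all 7 had base means above the median of the entries, from 2127 to 12088 for *Tfcp2l1*. All 4 hepatocyte markers were at or below 3.48, with the bile acid enzyme *Cyp7a1* listed at 0. Of the 4 enterocyte markers, *Fabp2* and *Apoa4* were listed at 0 and *Lct* was the highest, at 129. Of the 4 macrophage markers, 3 were matched. *Csf1r* was listed at 0, *Ptprc* had 1.8 and *Cd68* 180. The 5 fibroblast markers ranged from 86.8 to 369 for *Col1a1*. Per kb of gene span the groups were less separate. The matched stem cell markers lay between percentiles 81.2 and 99.6, but *Cd68* was at 86.8, *Col1a1* at 59.9 and *Thy1* at 59.3. All other matched markers of the other cell types lay below the median on that scale. *Rybp*, the targeted gene, had 238 base mean counts per kb of gene span (percentile 96.1), and *Yaf2* had 0.061 (percentile 6.1). As the *Rybp* value averages cells before and after the deletion, it does not check the labels.

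Most of the genes were well transcribed in these cells. Of the 32 genes, 29 had a base mean above the median of the 19198 entries with a value above 0, and 7 were above percentile 90. The base mean of the genes had a median of 1152 and ran from 17.5 for *Npc1l1* to 14146 for *Scd2*, against a median of 307 over all entries. A longer gene collects more reads, so genes were compared by the base mean divided by the gene span in kb, introns included. On this scale 29 of the 32 genes again lay above the median of all entries, and 9 were above percentile 90. The median over the genes was 65 per kb, against 12.2 per kb over the 19039 entries with a gene span, and the median percentile was 80.9.

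**Figure D1:**
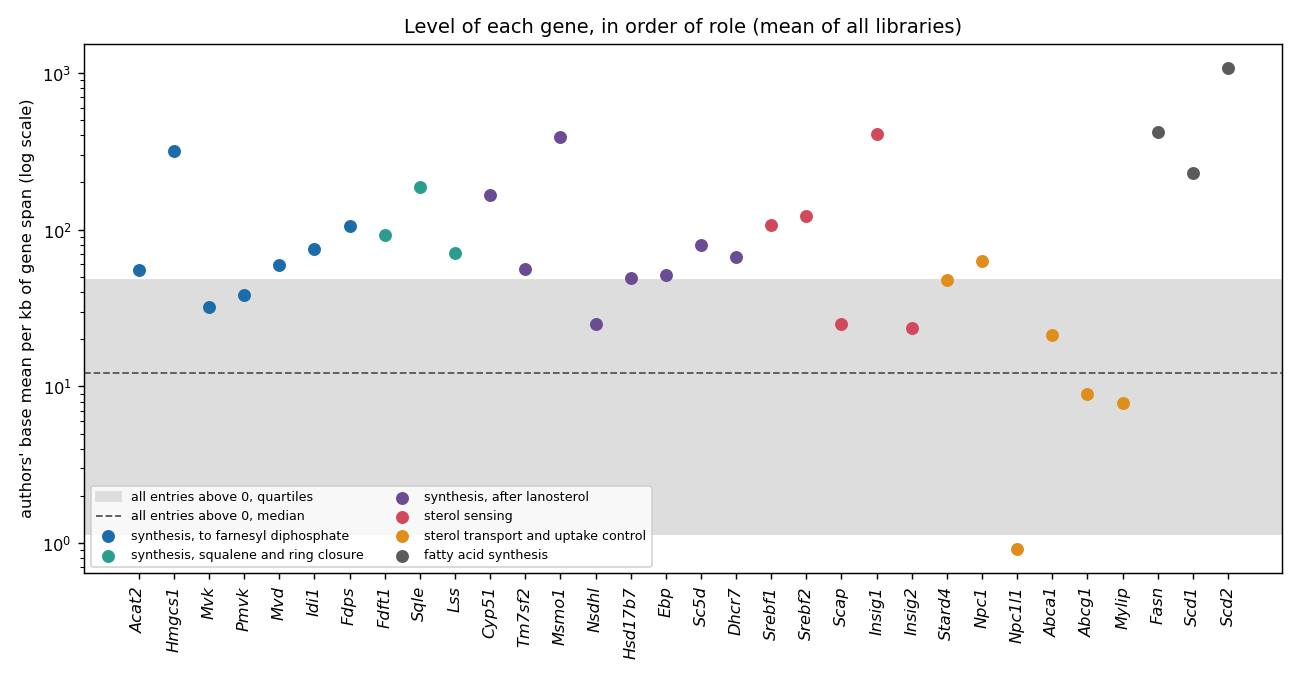
Base mean per kb of gene span (log axis) for each of the 32 genes in order of role, with 1 point per gene, the mean of all 6 libraries, and no error bar because the table gives none. The grey band spans the quartiles of all entries above 0 (1.15 to 47.7 per kb), the dashed line is their median (12.2 per kb), and only *Npc1l1*, *Mylip* and *Abcg1* lie below it.

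Promoter sequences were examined because SREBPs act through sterol regulatory elements (SRE) with help from NF-Y and Sp1, which bind the CCAAT box and the GC box. RefSeq windows of GRCm38.p6, from 250 bases before to 50 after a start site, were matched by symbol for 24 of the 32 genes. *Abcg1*, *Fdft1*, *Fdps*, *Npc1*, *Scd1*, *Scd2*, *Sqle* and *Stard4* had none and are not among the 24. These genes had 32 windows, and for 26 of them the last 30 bases lay in an annotated transcript of the gene. Motifs were searched on both strands, and a gene was counted if any of its windows held a match. As the genes were picked as sterol and SREBP target genes, the motifs are a description of the set and not independent evidence about it. A match is a run of letters and not a measured binding site.

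The SRE-like letters TCACNCCA were found in 3 of the 24 genes (12.5%), against 4.97% of 27025 genes with a window. Those genes encode HMG-CoA synthase (*Hmgcs1*), the sterol C4-methyl oxidase (*Msmo1*) and SREBP-2 itself (*Srebf2*). They are printed in the sense of the gene with the motif in capitals.
*Hmgcs1*, chr13:119690198-119690237, plus strand, motif from 137 bases upstream: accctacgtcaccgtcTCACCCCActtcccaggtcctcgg
*Msmo1*, chr8:64733732-64733771, minus strand, motif from 177 bases upstream: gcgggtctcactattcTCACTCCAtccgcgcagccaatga
*Srebf2*, chr15:82147091-82147130, plus strand, motif from 162 bases upstream: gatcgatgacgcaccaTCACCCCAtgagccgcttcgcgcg
These 3 genes lay at percentiles 97.3, 97.9 and 90.9 per kb of gene span. *Insig1* and *Fasn*, at percentiles 98 and 98.1, had windows without these letters. Whether the motif goes with the level was not tested. The count depends on the letters allowed. With TCACNCCAC, which adds a base, *Hmgcs1* alone matched, and with TCACNNCA, which frees a base, 10 of 24 genes matched (41.7%, against 15.7% of all genes). Among the looser matches was the lanosterol demethylase gene *Cyp51*, with TCACCTCA from 88 bases upstream of its start. These 3 versions are nested, so that each stricter match is also a looser one.

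The CCAAT box was found in 21 of the 24 genes (87.5%). It was found in 41.1% of all genes and in 42.4% of the 11478 genes with a window and a base mean of at least 10. Counted by window, the CCAAT box was in 22 of the 32 windows of the set (68.8%), against 37.4% of all windows. The genes without it were *Abca1*, *Acat2* and *Scap*. The GC box GGGCGG was also present in 21 of 24 genes, against 38.2% of all genes and 68.1% of those with a base mean of at least 10. The E-box CACGTG was found in 6 genes (25%, against 8.09% of all genes and 11.5% of those with a base mean of at least 10), namely *Abca1*, *Dhcr7*, *Hsd17b7*, *Insig1*, *Sc5d* and *Scap*. TATAAA occurred in 3 (12.5%), a share below the 15.7% of all genes and above the 8.57% of those with a base mean of at least 10. The 32 windows of the set had a median GC content of 62.3%, and windows of all genes with a base mean of at least 10 had 60.7%, so base composition was similar in the transcribed genes.

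**Figure D2:**
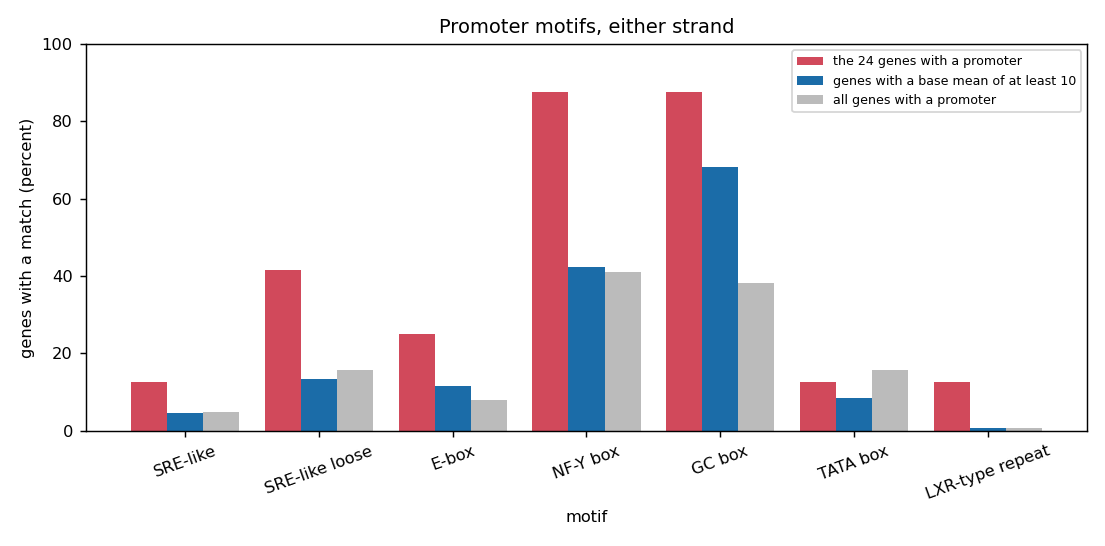
Percentage of genes with at least 1 match to each motif (bars from 0), for the 24 genes of the set with a promoter window, for genes with a base mean of at least 10 and for all genes with a window. The CCAAT box (NF-Y box) stands at 87.5% in the set against 42.4% and 41.1%, and the LXR-type repeat at 12.5% against 0.662% and 0.818%. The letters of this repeat were written with *Abca1* in mind, so its match in that gene was given.

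A direct repeat of the kind bound by LXR, a pair of degenerate half-sites in the same orientation with a spacer between them, was found in 3 of the 24 genes, against 221 of 27025 genes (0.818%). The letters were written with the known repeat of the *Abca1* promoter in mind, so that the match in *Abca1* was given. *Fasn* carries the same repeat letters, so its match followed from that of *Abca1*. As the set was picked by sterol roles, LXR targets among them, the share describes the set and is not independent evidence about it. In each gene the repeat lies on the opposite strand and appears here as its reverse complement.
*Abca1*, chr4:53159932-53159978, minus strand, from 67 bases upstream: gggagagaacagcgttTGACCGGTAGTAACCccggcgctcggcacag
*Fasn*, chr11:120824742-120824788, minus strand, from 225 bases upstream: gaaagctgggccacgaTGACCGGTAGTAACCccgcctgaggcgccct
*Srebf1*, chr11:60210623-60210669, minus strand, from 182 bases upstream: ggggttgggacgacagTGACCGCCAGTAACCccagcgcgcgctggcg
The repeat letters are identical in *Abca1*, which encodes a cholesterol exporter, and *Fasn*, the fatty acid synthase gene. All of these windows belong to start sites inside the annotated genes, so that each printed stretch, though upstream of its start site, lies within the gene span, which extends to 53159988 for *Abca1*, 120825166 for *Fasn* and 60224186 for *Srebf1*. Per kb of gene span the levels were 21.3 for *Abca1*, 107 for *Srebf1* and 420 for *Fasn*. Per kb of all annotated exons they were closer, at 266, 475 and 737, and the base means of *Abca1* and *Srebf1* were 2753 and 2676.

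Among the 18 enzymes of cholesterol synthesis, all 18 lay above the median of all entries per kb of gene span, with a median of 68.9 per kb and a median percentile of 82. They differed among themselves by 15.5-fold, from *Msmo1* at 389 per kb to *Nsdhl* at 25. Per kb of all annotated exons the range was 19.3-fold, between other genes, from *Hmgcs1* at 1240 to *Tm7sf2* at 64.3.

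The 7 enzymes that lead to farnesyl diphosphate had a median of 59.1 per kb. *Hmgcs1*, which makes HMG-CoA, stood well above the others, with a base mean of 5696 and 318 per kb (percentile 97.3). *Acat2*, the cytosolic thiolase that supplies acetoacetyl-CoA, had 55.4 per kb (percentile 78). The mevalonate kinase gene *Mvk* was the lowest of this stage per kb of gene span, at 32, and the phosphomevalonate kinase gene *Pmvk* had 38.1. *Mvd*, the mevalonate diphosphate decarboxylase gene, had 59.1 per kb. The isomerase gene *Idi1* followed with 75.3, and *Fdps*, the farnesyl diphosphate synthase gene, with 105 per kb. This order depends on the length used. Per kb of all annotated exons *Idi1* was the lowest of this stage, at 146 against 195 for *Mvk*, and its base mean of 511 was also the lowest. The genes of this stage thus spanned from percentile 67.3 to 97.3, with base means from 511 to 5696.

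At the commitment to sterols, *Fdft1* (squalene synthase) had 91.9 per kb. *Sqle*, the squalene epoxidase that catalyses a rate-limiting oxygenation, had 188 per kb (percentile 94.7). *Lss*, which closes the rings to lanosterol, had 70.5 per kb. All genes of this stage lay above percentile 80 on this scale, from 82.5 to 94.7.

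The 8 enzymes that turn lanosterol into cholesterol ranged from percentile 62.4 to 97.9. *Msmo1* (389 per kb) and *Cyp51* (167 per kb, percentile 93.8), which remove methyl groups at C4 and C14, were the highest. The base means of *Msmo1* and *Cyp51* were 6008 and 4001, at percentiles 95.9 and 92.2 of all entries. *Nsdhl* and *Hsd17b7*, which act with *Msmo1* in C4 demethylation, were lower, at 25 and 48.8 per kb. Their base means, 1002 and 962, were also below that of *Msmo1*. The size of the gap between *Msmo1* and *Nsdhl* depends on the 40008-base span of *Nsdhl*. Per kb of all annotated exons, *Msmo1* had 978, *Nsdhl* 351 and *Hsd17b7* 188. The sterol reductase gene *Tm7sf2* had the lowest base mean of the enzymes, 283, but lies in a short gene of 5030 bases and reached 56.3 per kb. The desaturase gene *Sc5d* had 79.9 per kb. For the antiestrogen binding site partners, *Ebp* (sterol isomerase) had a base mean of 421 and 51.4 per kb (percentile 76.5), and *Dhcr7*, the 7-dehydrocholesterol reductase gene, had 1696 and 67.2 per kb (percentile 81.5). Both genes were therefore transcribed in these cells.

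**Figure D3:**
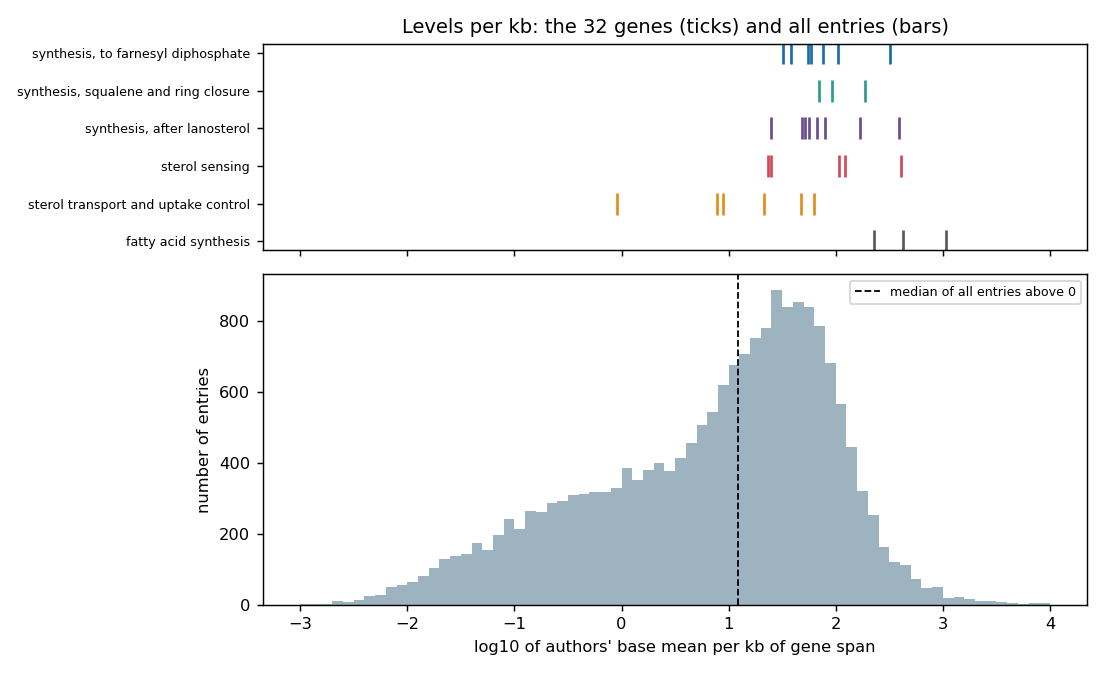
Upper panel, log10 of the base mean per kb of gene span for each of the 32 genes, 1 tick per gene, by role. Lower panel, number of entries of the whole table in each bin of the same scale, with their median as a dashed line; the 18 synthesis enzymes (top 3 rows) all lie to its right, and the transport genes spread from 0.911 to 62.8 per kb.

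The 5 sterol sensing genes ranged from 23.5 to 407 per kb. *Insig1*, whose protein retains SCAP and which is itself an SREBP target, had 407 per kb (percentile 98), the third highest of the 32 genes. *Insig2* had 23.5 per kb (percentile 61.2), so that the level of *Insig1* was 17.3 times that of *Insig2*. The size of this ratio rests on the length used. It was 4.43 for base means not divided by length, 4.97 per kb of all annotated exons and 2.12 per kb of the exons of the counted transcripts. The gene span is 28310 bases for *Insig2* and 7251 for *Insig1*. The exons of the counted *Insig2* transcript cover 1292 bases, against 3473 for all its annotated exons. The 2 entries of *Insig2* had base means of 667 and 664, and they share most of their span of 27068 and 22124 bases.

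*Srebf2*, which encodes the SREBP that chiefly drives cholesterol synthesis, had 123 per kb (percentile 90.9), and *Srebf1*, whose SREBP-1c form chiefly drives fatty acid synthesis, had 107 (percentile 89.1). The *Srebf2* to *Srebf1* ratio was 2.67 for base means, 2.09 per kb of all annotated exons and 2.26 per kb of the exons of the counted transcripts. It was 1.15 per kb of gene span and 0.987 per kb of the counted transcripts' span, so that the higher level of *Srebf2* depends on the length used. *Scap*, the escort of both, had 24.9 per kb (percentile 62.3). *Srebf2* also carries the microRNA gene *Mir33* within its span, on the same strand.

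The 6 genes of sterol transport and uptake control had the lowest group median per kb of gene span. It was 15.1 per kb, near the median of all entries, with 3 of the 6 genes above the latter. Per kb of all annotated exons their median was also the lowest, at 99.6. For base means not divided by length it was 619, above the 581 of the enzymes that lead to farnesyl diphosphate. *Npc1*, which moves cholesterol out of lysosomes, had 62.8 per kb (percentile 80.3). Its relative *Npc1l1*, the intestinal cholesterol uptake protein, had a base mean of 17.5 and 0.911 per kb (percentile 23.1), the lowest of the 32 genes. The level of *Npc1* was 68.9 times that of *Npc1l1* per kb of gene span, 168 times for base means and 143 times per kb of the exons of the counted transcripts. *Stard4*, a soluble sterol carrier, had 47.7 per kb. The exporter gene *Abca1* had a base mean of 2753 but spreads over 129200 bases, which left 21.3 per kb (percentile 59.3). *Abcg1*, also a sterol exporter gene, had 8.88 per kb (percentile 45.5), and *Mylip*, the LXR target that marks lipoprotein receptors for degradation, had 7.85 (percentile 43.7).

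The 3 fatty acid genes all lay above percentile 90 per kb of gene span. *Scd2*, a stearoyl-CoA desaturase gene, had a base mean of 14146 and 1073 per kb (percentile 99.4), the highest of all 32 genes on both of these scales. Per kb of the exons of the counted transcript, *Msmo1* was above it (2939 and 2593). *Fasn* had 420 per kb (percentile 98.1) and *Scd1* 230 (percentile 96). *Scd1* and *Scd2* lie 87590 bases apart on chromosome 19, and the level of *Scd2* was 4.66 times that of *Scd1* per kb of gene span. This ratio stayed between 4.11 and 4.66 for all lengths. Other copies of the desaturase family had far lower base means, 39.5 for *Scd3* and 2.88 for *Scd4*.

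Some levels could include reads of other genes. The reads are 40 bases long, and stretches of 40 bases in annotated transcripts were compared on both strands. Introns were not searched and the reads are paired, so the shares below are not shares of a gene's level. Of the 32 genes, 9 shared no stretch with another gene and 18 shared at least 1%. The largest share, 41.3% in *Acat2*, was with its near copy *Acat3*. *Fdft1* shared 29%, mostly with *Ctsb*, whose span overlaps its own by 774 bases on the opposite strand, and *Fdps* shared 27.3%, mostly with *Gm43738*, a gene model that covers 89.7% of its span on the same strand. *Idi1* shared 26.2%, of which the largest part was with the gene model *Gm13502*, and *Hmgcs1* shared 12.3%. *Tm7sf2* shared 10.9%, mostly with *Vps51*, whose span overlaps its own by 532 bases on the same strand. The base means of *Tm7sf2* and *Vps51* were 283 and 599. *Scap* shared 10.7%. *Scd1* and *Scd2* shared 6.28% and 5.33%, most of it with *Scd3* (4.4% and 3.57%). *Mvd* lies wholly within the span of *Gm20388*, annotated on the opposite strand. The authors filtered their gene set on size, mappability and unique start and end sites, to drop transcripts that map poorly or closely resemble others. No entry was matched to *Acat3*. What this filter changed in these levels was not tested. Whether the authors' counting used strand is not stated in the sources used here. The levels of these genes, of *Acat2* and *Fdps* above all, are therefore uncertain by a part that was not tested.

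Neighbouring genes were compared too. A protein-coding gene in head-to-head orientation with its start within 1000 bases was annotated for 3 of the 32 genes (9.38%), a share close to the 9.53% of protein-coding genes with a base mean of at least 10. *Mvk* starts 209 bases from *Mmab*, a cobalamin metabolism gene. Their base means were 522 and 342. *Nsdhl* starts 146 bases from the centrin gene *Cetn2* (base means 1002 and 283), and *Dhcr7* starts 296 bases from *Nadsyn1*, the NAD synthetase gene (base means 1696 and 330).

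The choice of length moved single genes more than the set. Because nuclear RNA holds unspliced transcripts, the gene span was used as the length. Across 15435 entries at or over a base mean of 10, the base mean had a Spearman correlation of 0.32 with transcript span and 0.29 with exon length, across genes that are not independent replicates, so these values favour neither length. With gene span, all annotated exons, and the span or the exons of the counted transcript, 28 of the 32 genes lay above the median under all 4 lengths. *Npc1l1*, *Mylip* and *Abcg1* lay below it under all 4. *Tm7sf2* crossed it, at percentile 78.3 for gene span and 47.4 for all annotated exons. The genes above percentile 90 under all 4 lengths were *Hmgcs1*, *Insig1*, *Msmo1*, *Scd2* and *Srebf2*.

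**Figure D4:**
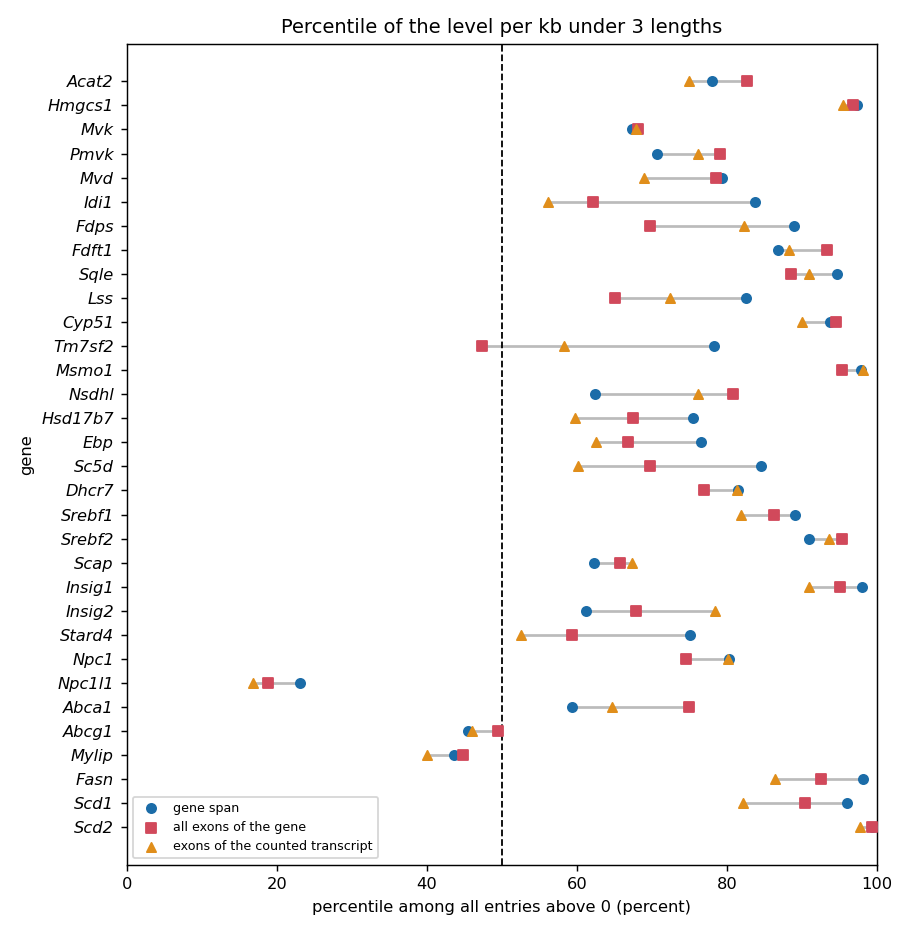
Percentile of each gene's base mean per kb among all entries above 0, with the length taken as the gene span (circles), all annotated exons of the gene (squares) or the exons of the counted transcript (triangles); grey lines join the values of a gene and the dashed line is the median. *Scd2* stays between 97.8 and 99.4, while *Tm7sf2* moves between 47.4 and 78.3.

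A list of 29 further genes of the same metabolism, which does not cover every gene of the pathway, was compared by the same measure, and 25 of them lay above the median per kb of gene span, with a median of 41.4 per kb. Among the highest were *Mbtps1*, the Golgi protease that makes the first cleavage of SREBPs, at 198 per kb, and *Acly*, the ATP citrate lyase gene that supplies cytosolic acetyl-CoA, at 180. The other SREBP protease gene, *Mbtps2*, had 65 per kb. The lowest were *Nr1h3* (LXR-alpha) at 1.19 per kb (percentile 25.3), *Vldlr*, a lipoprotein receptor gene, at 6.65, and *Acss2*, an acetyl-CoA synthetase gene, at 9.44. *Nr1h2*, which encodes LXR-beta, had 153 per kb (percentile 93.1), and it was above *Nr1h3* per kb of exons as well (198 and 8.85). *Mbtps2* and *Nr1h2* were named after their values were seen.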

How the data were processed

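Directional libraries of rRNA-depleted nuclear RNA were sequenced with paired 40-base reads. The authors discarded reads that matched rRNA (bowtie2), mapped the others to mm10 with STAR, mapped those left over with bowtie2, counted read pairs per gene of a filtered RefSeq set with their own script, and normalized the counts in DESeq2. Versions are not given in the sources used here. The deposited base mean is a signal, the authors' mean over all libraries of size-factor-normalized counts. Fold changes with standard errors, Wald statistics, p-values and a threshold column, the authors' own comparison, were not used. The count test planned for libraries was not run, as counts per library were not analysed here.

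Entries were named through RefSeq accessions of GRCm38.p6, the same coordinates as mm10, which matched 20450 of 20633 entries. Gene spans came from that table. Exons, transcript spans and transcript sequences came from GENCODE vM21, which matched 18871 entries above 0. Percentiles are the percentage of entries above 0 at or under a value. Python 3.11.15, numpy 2.4.6, pandas 2.3.3, scipy 1.17.1 and matplotlib 3.10.9 were used. Only the percentile, motif search and exon union steps were tested on data with known answers. Every gene of the set is named. Of the further list the 3 highest and 3 lowest are, except for a gene that is not reported here, and others as stated. Members, lists and motifs were chosen with earlier results of these data known. Protein sequences were not analysed here. Alternatives were other backgrounds, row choices, lengths and motif letters.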

Additional observations from a re-analysis of the deposited data

How the results depend on the processing

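No paired analysis was possible because the base mean pools all libraries. For the same reason the count test, the replicate block, the second count tool, the filter on low counts and leaving out each replicate were not run, so how stable a level is between libraries is unknown. The number of genes above the median base mean was 29, and between 25 (only entries at or over a base mean of 10) and 30 (zeros included) under the 4 alternatives. The number above percentile 90 of the base mean was 7, or 6 with the minimum of 10. Per kb, 29 genes were above the median under 5 of the 6 alternatives and 28 with all annotated exons as the length. For the synthesis enzymes it was 18 under 3 of the 4 alternatives and 17 with all annotated exons. The number of genes with an SRE-like motif moved from 3 to 1 with the stricter letters and to 10 with the looser ones. The lengths of the counted transcript were added after seeing the data.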
